A study of Mus musculus with 4 samples.

Results

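The cells described here are regulatory T cells of an effector, tissue-type profile from the pancreatic islets of NOD mice. They were chosen by their UMIs (unique molecular identifiers, each standing for 1 captured RNA molecule). A member had 1 or more Foxp3 UMIs, none of Cd8a or Cd8b1, and UMIs of at least 2 of 7 genes: Areg, Ccr8, Itgae, Capg, Tnfrsf4, Lag3 and Penk. There were 226 such cells among 339 Foxp3 cells without Cd8 UMIs, and among 3809 cells that passed the limits on genes (at least 500) and on mitochondrial UMIs (at most 10%). The other 113 Foxp3 cells, with 0 or 1 of the 7 genes, were the comparison group within each library, and are called the other Foxp3 cells. NOD is an inbred strain that develops autoimmune diabetes spontaneously. Female NOD mice were used before the onset of diabetes, at 8 and at 16 weeks of age. T cells of their islets that bore TCR beta and excluded the dead-cell dye DAPI were sorted and loaded on a droplet-based 5' single-cell kit. At each age there was a single RNA library with its matching receptor library, and the labels do not give the number of mice or any pooling. The ages are therefore not replicated. No difference was tested, all intervals are 95% intervals that cover counting error only, and a difference between ages is one between 2 libraries.

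Regulatory T cells restrain other lymphocytes and depend on the transcription factor Foxp3. Resting cells recirculate through lymph nodes under Klf2, S1pr1 and Ccr7. Effector cells leave this programme, settle in tissues, carry more inhibitory and costimulatory receptors such as Ctla4, Tigit and Tnfrsf4, and can release suppressive or tissue-repairing products such as Il10 and the growth factor amphiregulin (Areg). In islets, regulatory cells are known to hold back the T cells that attack beta cells.

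At 8 weeks 127 of 186 Foxp3 cells were members (68.3%, interval 61.1 to 74.9%), and at 16 weeks 99 of 153 (64.7%, 56.6 to 72.3%). Members made up 6.77% and 5.12% of all kept cells. Because a deeper cell shows more genes, each cell was also thinned to 2000 UMIs and shallower cells were left out. Members were then 64 of 104 Foxp3 cells at 8 weeks (61.5%) and 49 of 80 at 16 weeks, so the 2 shares lay close together with and without thinning. The same 2-of-7 rule took 33.7% and 23.7% of the Foxp3-negative cells with a Cd4 UMI and no Cd8 UMI (22.7% and 18.8% after thinning). The share among Foxp3 cells was thus above that among Foxp3-negative cells at both ages. This is a description, since the rule was chosen with earlier results of these data known. The groups also differ in that no Cd4 UMI was asked of the Foxp3 cells.

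Depth separated the 2 Foxp3 groups. Members held 960475 and 710643 UMIs in all, with medians of 5683 and 5671 per cell. The other Foxp3 cells held 176570 and 214614, with medians of 2228 and 2701. The number of rule genes detected ran from 0 to 7 without a break. At 8 weeks 33 cells had 1 gene and 36 had 2, with medians of 2632 and 3234 UMIs. At 16 weeks 38 cells had 1 gene and 18 had 2, with medians of 3310 and 4302 UMIs. The group is therefore set by a line drawn across this range. No clustering was run, so whether it forms a separate cluster was not tested. Depth mostly grew with the number of genes. Its part in the results was not tested. Values on thinned cells are given for the counts of genes and for genes and lists where enough UMIs were left.

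**Figure D1:**
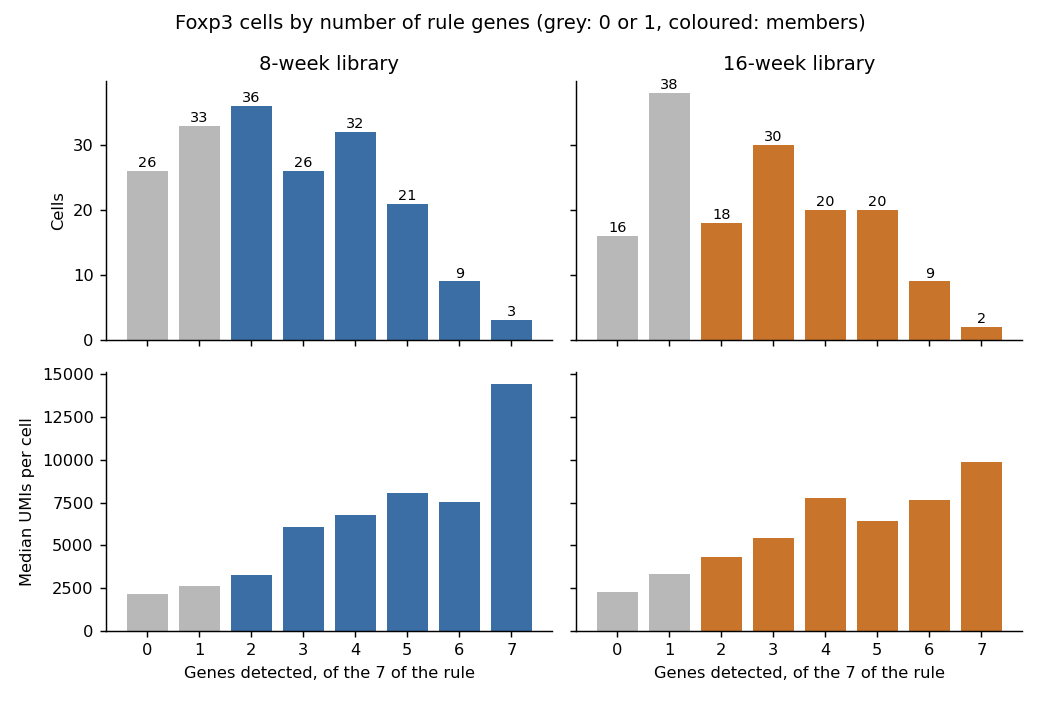
Bars give the number of Foxp3 cells (top) and their median UMIs (bottom) by how many of the 7 rule genes had a UMI, at 8 weeks (left) and 16 weeks (right). Grey bars are the other Foxp3 cells and coloured bars the members. Cells lie on both sides of the line at 2 genes, and cells with more genes were mostly deeper.

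A second value that moved with membership was the number of productive beta contigs per cell, since a droplet with a pair of cells, or a cell with a pair of beta chains, gives more than 1. At 8 weeks 39 of the 119 members with a beta contig had 2 or more (32.8%, interval 24.4 to 42.0%). At 16 weeks 32 of 96 members did (33.3%, 24.0 to 43.7%). In the other Foxp3 cells this was 2 of 47 (4.26%) and 7 of 43 (16.3%), and in all kept cells 12.8% and 14.3%. Members with 2 or more beta contigs were also deeper, with medians of 8829 and 8447 UMIs against 4689.5 and 4609.5 in members with 1. In them the second chain had a median of 5 UMIs at both ages, the first 11 and 11.5. Without any cell of 2 or more beta contigs, 88 and 67 members and 57 and 47 other Foxp3 cells remained, and members were 60.7% of Foxp3 cells at 8 weeks. The part of such droplets in the results was not tested, and values without them are given for the counts of genes and for the genes and lists where they move a result.

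Of the markers named for these cells (Foxp3, Areg, Ccr8, Itgae, Penk and Ctla4), all but Ctla4 were used by the rule. Their detection in members therefore cannot bear out the label. Foxp3 (ENSMUSG00000039521, chromosome X from 7573644 to 7595245, mouse build mm10) was present by the rule. It stood at 1 UMI in 56 of 127 members (44.1%) at 8 weeks and 34 of 99 (34.3%) at 16 weeks. Cells with a Cd8 and no Cd4 UMI, which should lack Foxp3, had a Foxp3 UMI in 5.07% and 4.97% (2.27% and 2.49% after thinning). All cells with a Cd8 UMI, whether or not they had Cd4 UMIs, had a Foxp3 UMI in 13.3% and 10.4% (2.49% and 2.90%). Cells without Cd8 UMIs had one in 12.4% and 10.1% (8.29% and 6.01%). The median depth of all kept cells was 2975 and 2930 UMIs, and that of all cells with a Cd8 UMI 3884 and 3636.5. How many members with a single Foxp3 UMI took it from free RNA was not tested. Cd4 UMIs were found in 83 members (65.4%) at 8 weeks and 72 (72.7%) at 16 weeks, and Cd3e in every member. Ctla4, the inhibitory receptor that marks regulatory cells, was detected in 102 (80.3%) and 83 (83.8%). Ikzf2, the Helios factor of thymus-derived regulatory cells, was found in 113 and 90 members, Izumo1r (folate receptor 4) in 106 and 93, and Tnfrsf18 (GITR) in 112 and 89. The other Foxp3 cells, which were shallower, had Ctla4 in 37.3% and 53.7% and Ikzf2 in 62.7% and 61.1%. They had Izumo1r in 67.8% and 63.0% and Tnfrsf18 in 59.3% and 61.1%. The tissue markers used by the rule were patchier. Ccr8 was found in 61 members at 8 weeks (48.0%) and 36 at 16 weeks (36.4%), Itgae in 51 (40.2%) and 47 (47.5%), Areg in 24 (18.9%) and 39 (39.4%), and Penk in 18 (14.2%) and 15 (15.2%).

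Receptors were read from separate libraries and took no part in the rule. A clone here is a set of cells with the same V and J segments and the same CDR3 nucleotides in their alpha and beta chains. A paired receptor was found in 106 members at 8 weeks and 90 at 16 weeks, and these held 102 and 88 different receptors. At 8 weeks 17 of the 106 (16.0%, 9.63 to 24.4%) belonged to a clone of 2 or more cells of the library, and at 16 weeks 9 of 90 (10%, 4.68 to 18.1%). None of the other Foxp3 cells did: 0 of 39 at 8 weeks, which allows a share of up to 7.69% by the limit of 3 counts (exact interval to 9.03%), and 0 of 38 at 16 weeks, which allows up to 7.89% (9.25%). Foxp3-negative Cd4 cells that met the same 2-of-7 rule had 85 of 195 in clones at 8 weeks (43.6%, 36.5 to 50.9%) and 31 of 136 at 16 weeks (22.8%, 16.0 to 30.8%). All Foxp3-negative cells without Cd8 UMIs had 142 of 926 in clones (15.3%) and 68 of 952 (7.14%), both within the members' intervals. The members' shares lay between those of the other Foxp3 cells and of the 2-of-7 Foxp3-negative cells. At 8 weeks the intervals of members and of these Foxp3-negative cells did not overlap, and at 16 weeks the members' interval overlapped those of both. Without cells of 2 or more beta contigs the members' shares were 10 of 68 (14.7%) and 6 of 58 (10.3%).

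The clones that tie members together were few. At 8 weeks 13 clones held a member, 4 of them 2 members, and at 16 weeks 7 clones held one, 2 of them 2 members. A Foxp3-negative cell without Cd8 UMIs shared the clone in 10 of the 13 and 5 of the 7. None of the other Foxp3 cells was in these clones. Among the 1362 and 1396 kept cells with a paired receptor, 926 and 952 were Foxp3-negative without Cd8 UMIs. Only 39 and 38 were other Foxp3 cells. Whether clones were shared more or less often than these numbers would give was not tested. The CDR3 sequences of the 6 clones with 2 members are shown because they are the receptors seen repeatedly among the members, and because 2 of them also occurred in Foxp3-negative cells. They were read from the deposited contigs. Capitals mark the bases between the start that at least 50% of the different CDR3s with the same V segment share and the end that at least 50% of those with the same J segment share. This is the part between the shared V start and the shared J end. In beta chains it also holds any D segment, which was not marked apart from bases added in joining.
clone 1 TRA: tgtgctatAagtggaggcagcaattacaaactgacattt
clone 1 TRB: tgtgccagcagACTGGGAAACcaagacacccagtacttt
clone 2 TRA: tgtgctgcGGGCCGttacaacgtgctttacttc
clone 2 TRB: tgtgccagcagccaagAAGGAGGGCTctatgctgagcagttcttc
clone 3 TRA: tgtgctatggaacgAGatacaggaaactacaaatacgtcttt
clone 3 TRB: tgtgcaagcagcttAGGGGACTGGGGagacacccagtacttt
clone 4 TRA: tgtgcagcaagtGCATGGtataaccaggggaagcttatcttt
clone 4 TRB: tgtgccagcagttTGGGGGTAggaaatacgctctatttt
clone 5 TRA: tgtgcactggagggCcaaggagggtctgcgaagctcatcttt
clone 5 TRB: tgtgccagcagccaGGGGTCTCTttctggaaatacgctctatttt
clone 6 TRA: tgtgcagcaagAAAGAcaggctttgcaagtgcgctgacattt
clone 6 TRB: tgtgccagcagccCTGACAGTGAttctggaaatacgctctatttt

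Clones 1 to 4 came from the 8-week library. Clone 1 (TRAV13D-2 with TRAJ53, TRBV15 with TRBJ2-5) had 7 cells: 2 members, 3 Foxp3-negative cells without Cd8 UMIs and 2 cells with Cd8 UMIs. Clone 2 (TRAV4-3 with TRAJ21, TRBV5 with TRBJ2-1) had 5 cells, 2 of them members and 3 Foxp3-negative. Clone 3 (TRAV13-4-DV7 with TRAJ40, TRBV16 with TRBJ2-5) and clone 4 (TRAV14D-2 with TRAJ23, TRBV15 with TRBJ1-3) consisted of 2 members each. At 16 weeks clone 5 (TRAV17 with TRAJ57, TRBV5 with TRBJ1-3) and clone 6 (TRAV10N with TRAJ35, TRBV5 with TRBJ1-3) were likewise 2 members each. Clones 5 and 6 share both beta segments and end alike, yet their capitalised stretches differ. Clones 1 and 2 each had 1 member with 2 or more beta contigs, and clones 3 to 6 had none.

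No paired receptor of a member at one age was found in any cell of the other age, and 1 paired receptor in all was shared by the libraries. Of 91 different beta chains of 16-week members, 1 was found at 8 weeks, in a cell that was not a member. Of 109 of 8-week members, 0 were found at 16 weeks. Over all kept cells the libraries shared 8 beta chains, so sharing was rare beyond the members too. Among members with 1 beta contig, TRBV16 was the most frequent segment at 8 weeks, in 11 of 80 (13.8%, 7.07 to 23.3%), and was found in 3 of 64 (4.69%) at 16 weeks. TRBV13-2 led at 16 weeks with 12 of 64 (18.8%, 10.1 to 30.5%), followed by TRBV5 with 11 (17.2%). In Foxp3-negative cells without Cd8 UMIs TRBV16 stood at 8.21% and 6.35%, TRBV13-2 at 170 of 999 cells and 149 of 1023 (14.6%), and TRBV5 at 7.61% and 9.38%. The members' intervals included these values for TRBV16 and TRBV13-2 at both ages and for TRBV5.

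**Figure D2:**
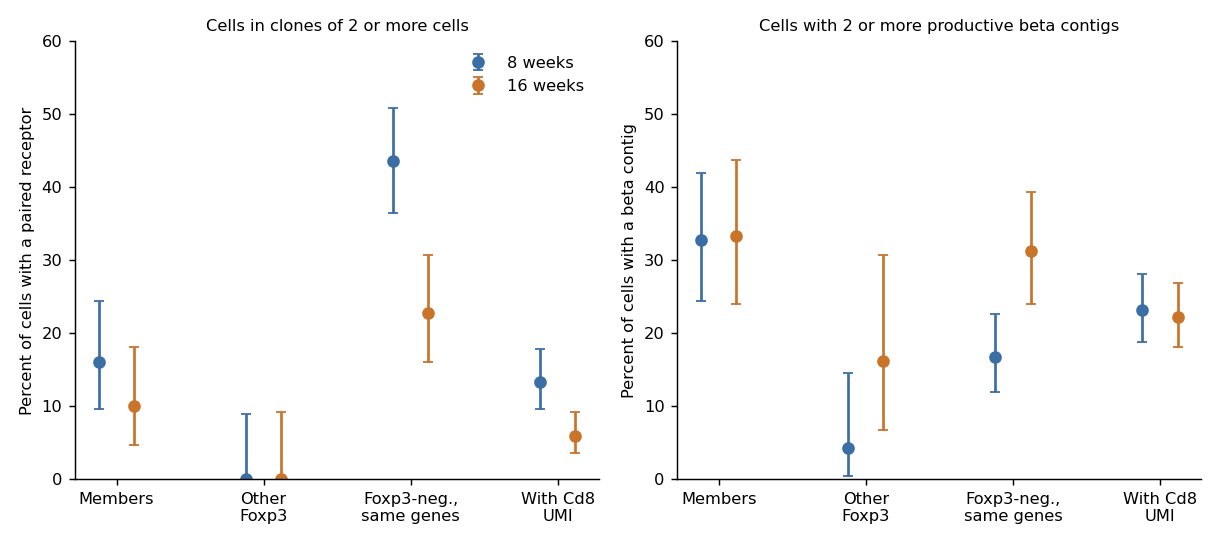
The left panel gives the percentage of cells with a paired receptor that lay in a clone of 2 or more cells, and the right panel the percentage of cells with 2 or more productive beta contigs, for members, other Foxp3 cells, Foxp3-negative Cd4 cells with 2 or more of the same 7 genes, and cells with a Cd8 UMI. Points are shares and bars exact binomial intervals; members lie between the other Foxp3 cells (0 of 39 and 0 of 38) and the Foxp3-negative cells in the left panel.

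The 7 rule genes had unlike roles in fixing membership. Levels are given as UMIs per 1000000 UMIs of the summed cells (CPM), and they are a description since the rule used them. Tnfrsf4 (OX40, a costimulatory receptor, chromosome 4 from 156013843 to 156016612) was detected in 123 members at 8 weeks and 94 at 16 weeks, at 1022 and 791 CPM. Capg, an actin-capping protein of motile cells (chromosome 6 from 72544391 to 72562983), was found in 105 and 82, at 401 and 315 CPM. Lag3, an inhibitory receptor that binds MHC class II (chromosome 6 from 124904361 to 124911705), was found in 76 and 61, at 406 and 431 CPM. These 3 genes carried most memberships. The pair Capg and Tnfrsf4 alone admitted 21 members at 8 weeks (16.5%) and 7 at 16 weeks (7.07%). In all, 37 different combinations occurred in each library.

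The rarer rule genes were more uneven. Ccr8, a chemokine receptor of tissue and tumour regulatory cells (chromosome 9 from 120092114 to 120094906), stood at 149 CPM at 8 weeks and 98.5 at 16 weeks. Itgae, the integrin chain CD103 that binds E-cadherin on epithelium (chromosome 11 from 73090583 to 73147446), stood at 113 and 162 CPM. Areg (chromosome 5 from 91139599 to 91148432) stood at 107 and 218 CPM. Penk, the precursor of the enkephalin opioid peptides (chromosome 4 from 4133531 to 4138819), stood at 176 and 332 CPM although only 18 and 15 members had it, so a few cells carried many UMIs: at 16 weeks 1 cell gave 28.4% of them.

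Each rule gene was also set against a grouping made from the other 6, so that its own UMIs did not place the cell. All 7 were then higher in members in both libraries. Lag3 stood at 398 CPM in members against 137 in the other Foxp3 cells at 8 weeks, and at 437 against 36.9 at 16 weeks (log2 ratios 1.52 and 3.49). Tnfrsf4 stood at 1077 against 451 and 842 against 302 (1.25 and 1.47), and Capg at 398 against 192 and 322 against 156 (1.04 and 1.03). For Itgae the log2 ratios were 3.05 (interval 1.47 to 6.42, with 2 UMIs in the other cells) and 1.32, for Ccr8 1.36 and 2.60, and for Areg 0.70 (interval -0.15 to 1.80) and 3.78. Penk had 1 UMI in the other cells at 8 weeks (log2 ratio 4.40, 2.49 to 10.30) and none at 16 weeks, where it was at least 23.8-fold higher in members against a floor of 3 UMIs over the group. In thinned cells Tnfrsf4 was detected in 78.0% of members and 49.2% of the others at 8 weeks, and in 72.5% and 27.5% at 16 weeks. The groups here were still made at full depth, so depth still entered the grouping. Areg at 8 weeks is the 1 case of the 14 whose interval included 0.

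Joint detection was counted within the members and not tested. A member needed at least 2 rule genes, so joint counts of rule genes, such as Areg with Itgae, are shaped by the rule. Shares in all members include the cells they are set beside, and depth was not matched. Penk was in 18 and 15 members and Gzmb, the gene of the cytotoxic protease granzyme B, in 18 and 11, with no member in common; so few cells with either gene show no separation. Gzmb cells were mostly Itgae cells (11 of 18 and 8 of 11). At 8 weeks 1 of 24 Areg members had Gzmb, and at 16 weeks 8 of 39 had it. Areg members carried Itgae in 16 of 24 and 22 of 39, beside 51 of 127 and 47 of 99 of all members. They carried Il1r2 (a decoy receptor for interleukin 1) in 7 of 24 and 12 of 39, beside 17 of 127 and 18 of 99. Gata3, a factor of type 2 and tissue regulatory cells, was in 8 of 24 and 19 of 39 Areg members and in 49 of 127 and 38 of 99 of all, so its share was lower among Areg members at 8 weeks and higher at 16 weeks. Il1rl1, the ST2 receptor for interleukin 33 found on many repair-type regulatory cells, was detected in only 6 members in each library. It overlapped with Areg in 3 cells each time.

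The comparison with the other Foxp3 cells asks what else goes with the 7 genes. It used every gene with at least 20 UMIs over both groups in each library, 4893 genes, leaving out the rule genes, Foxp3, Cd8a, Cd8b1 and receptor variable segments. A gene counted as past the fold when its log2 ratio was 1 or more in size in the same direction in both libraries. This held for 84 genes higher in members (1.72% of those measured) and 27 lower (0.552%). The median log2 ratio over all genes was 0.05 at 8 weeks and 0.06 at 16 weeks. In a single library the counts were 428 and 326 higher and 256 and 141 lower, so most differences of one library were not met in the other, and 19 genes were past the fold in opposite directions. The other Foxp3 cells are shallow: 61 of the 84 higher genes had 3 or fewer UMIs there in at least 1 library. In 9 there were none, and for 2 of these 9 the bound set by 3 UMIs was under 2-fold. When cells were scaled without ribosomal protein and mitochondrial genes, the split was 69 higher and 37 lower. With 2 UMIs added to each sum in place of 0.5 it turned to 33 higher and 43 lower. All 27 lower genes were then still past the fold, and 51 of the 84 higher genes were not, among them Prdm1, Rbpj, Fgl2, Il10 and Tnfrsf9. Since the other Foxp3 cells held fewer UMIs in all, the same addition raises their CPM more. It must therefore lower the ratios of higher genes, and no lower gene could come back within the fold. This setting thus does not show which direction is firmer.

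**Figure D3:**
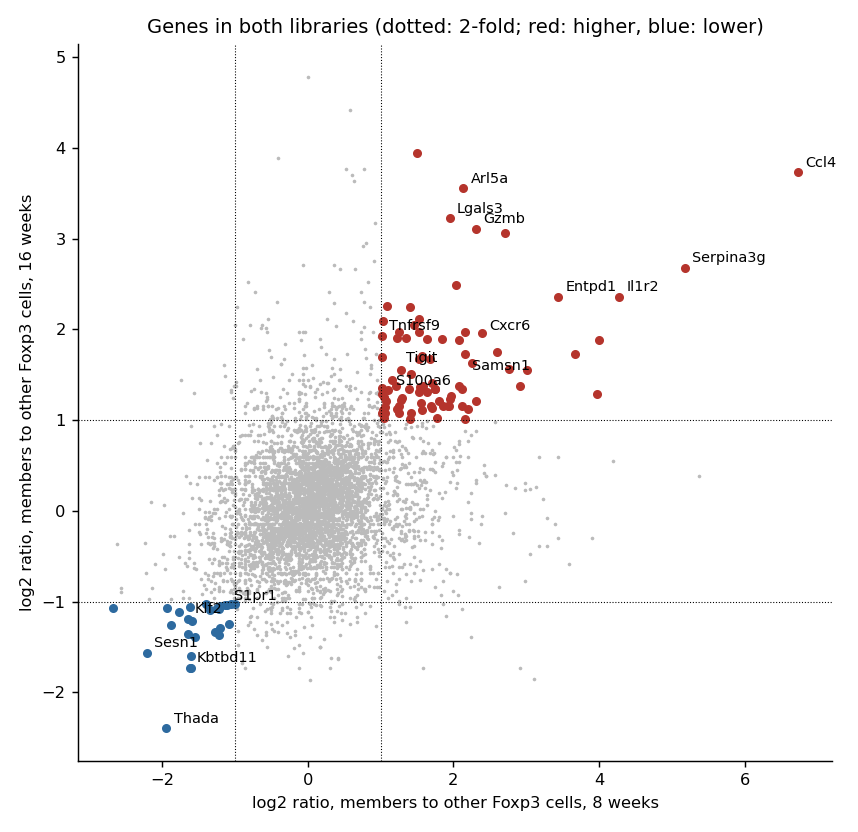
Each point is 1 of 4893 genes, with its log2 ratio of members to the other Foxp3 cells at 8 weeks (x axis) and at 16 weeks (y axis); dotted lines mark 2-fold. Red points are the 84 genes higher and blue points the 27 genes lower in both libraries, and genes with no UMI in the other cells (Ccl4, Serpina3g, Il1r2 and Entpd1 at 8 weeks) sit where the 0.5 UMIs added to each sum place them.

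The higher genes included chemokine, homing and effector genes. Ccl4, an inflammatory chemokine (chromosome 11 from 83662584 to 83664683), stood at 299 CPM in members at 8 weeks, in 25 cells, with no UMI in the other Foxp3 cells, which makes it at least 17.6-fold higher. At 16 weeks it stood at 277 CPM against 18.6 (log2 ratio 3.73, 2.52 to 5.78), in 23 members and 1 other cell. Cxcr6, a chemokine receptor of tissue-resident T cells (chromosome 9 from 123806475 to 123811760), stood at 133 CPM in members and 22.7 in the others at 8 weeks, and at 117 and 28.0 at 16 weeks. Its log2 ratios were 2.39 (1.17 to 4.45) and 1.96 (0.88 to 3.55), with UMIs in 44 and 39 members and in 2 and 4 of the other cells.

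Arl5a, a small GTPase of the Golgi (chromosome 2 from 52397951 to 52424901), had log2 ratios of 2.13 and 3.56: 111 CPM against 22.7 at 8 weeks and 136 against 9.32 at 16 weeks. Samsn1, an adaptor that dampens lymphocyte signalling, stood at 213 against 45.3 and 224 against 65.2 CPM (2.15 and 1.73). Cst7, an inhibitor of proteases in cytotoxic granules, stood at 185 against 56.6 and 215 against 55.9 CPM (1.64 and 1.89). These 3 genes and Cxcr6 were still past the fold in both libraries after thinning, with log2 ratios at 8 and 16 weeks 2.43 and 3.69 for Arl5a, 2.58 and 2.15 for Cxcr6, 1.14 and 1.32 for Samsn1, and 1.12 and 2.09 for Cst7.

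Serpina3g, an intracellular inhibitor of cysteine and serine proteases, stood at 102 CPM in members and had no UMI in the others at 8 weeks (at least 6.01-fold higher), and stood at 134 against 18.6 at 16 weeks (2.68). Serpina3f behaved alike with 1 UMI in the others each time (2.71, 0.74 to 8.61, and 3.06, 1.07 to 8.97); the 2 genes are close copies, so reads may be divided between them. Lgals3 (galectin 3) stood at 142 against 34.0 CPM at 8 weeks and 64.7 against 4.66 at 16 weeks, the latter from 1 UMI in the others (1.95, and 3.23 with an interval of 1.25 to 9.13). Entpd1 (CD39, which breaks down extracellular ATP) stood at 30.2 and 35.2 CPM, at least 1.78-fold higher at 8 weeks and with a log2 ratio of 2.36 (0.31 to 8.28) at 16 weeks. Ifitm2, an interferon-induced membrane protein, was at least 2.63-fold higher and then 1.88 on the log2 scale. Ube2e3, Ehd1, Ttc39c, Cpox and Elp5 completed the 15 highest genes, with log2 ratios from 1.68 to 2.60 where both groups had UMIs.

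The lower genes were led in abundance by Klf2, the factor that keeps T cells in recirculation (chromosome 8 from 72319033 to 72321656). It stood at 276 CPM in members and 861 in the other Foxp3 cells at 8 weeks, and at 338 and 769 at 16 weeks. Its log2 ratios were -1.64 (-1.93 to -1.34) and -1.19 (-1.48 to -0.89). S1pr1, the receptor by which lymphocytes leave tissues and a known target of Klf2 (chromosome 3 from 115710433 to 115715072), stood at 92.7 against 198 and 107 against 219 CPM (-1.11 and -1.04). Both were lower in both libraries, with intervals below 0. After thinning, Klf2 was -0.56 and -1.29 and S1pr1 -0.86 and -1.15, so the 8-week values were then no longer past the fold. In cells of 2500 to 6000 UMIs, a window chosen after seeing the data, Klf2 was -0.98 and -1.50, and S1pr1 -0.016 and -1.73, so S1pr1 at 8 weeks then lay near 0. Sesn1, a stress-induced inhibitor of mTORC1, had log2 ratios of -2.21 and -1.56, Thada -1.94 and -2.39, and Kbtbd11 -1.62 and -1.73. Tcp11l2, Clec2i, Slc44a2, P4ha1 and Fam101b were also among the 10 lowest, at -1.20 to -1.64.

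Gene lists put these values in context. Each list is given by the number of its genes with enough UMIs and by its median beside the 0.05 and 0.06 of all genes. The 15 genes of the resting and lymph node homing list were all below 0 in both libraries, with medians of -1.11 and -0.77. Of these, 2 were past the fold in both (Klf2 and S1pr1). Ccr7, a lymph node homing receptor, had -1.33 and -0.77, and the factor Lef1 -1.05 and -0.87, each past the fold at 8 weeks only. Bcl2, a survival factor, had -1.62 and -0.46. The list's median stayed below 0 in both libraries under each of the 16 other settings run, although thinning left 7 of its genes with enough UMIs (-0.43 and -1.29).

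The suppressor molecules went the other way. Of 13 genes measured, 12 were above 0 in both libraries, the medians were 1.04 and 1.08 (0.84 at 8 weeks with Entpd1 at its bound). Tigit, Il10, Gzmb, Fgl2 and Cst7 were past the fold, and Entpd1 was so only through the 0.5 UMIs added, since its 8-week bound is under 2-fold. Thinned, 7 of the list had medians of 1.12 and 1.20. Tigit, an inhibitory receptor (chromosome 16 from 43648867 to 43664146), was the most abundant of these, at 513 against 210 CPM at 8 weeks and 445 against 149 at 16 weeks (1.27 and 1.56). Gzmb stood at 97.9 and 99.9 CPM (2.31, 0.93 to 4.83, and 3.11, 1.52 to 6.50), from 18 and 11 members, with 1 cell giving 43.7% of its UMIs at 16 weeks. Il10, the suppressive cytokine interleukin 10, stood at 58.3 and 64.7 CPM in members (1.57 and 1.11, the latter interval from -0.02), in 21 and 23 cells. Among Foxp3 cells of 2 or more Foxp3 UMIs Il10 turned to -0.60 at 16 weeks. Fgl2, a secreted suppressor of dendritic cells, had 2.15 and 1.02. Ctla4 was 601 against 289 CPM at 8 weeks and 563 against 294 at 16 weeks; its log2 ratio of 1.04 was past the fold at 8 weeks and that of 0.93 at 16 weeks just below it.

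The identity genes of regulatory cells had no common direction. Of 15 measured, none was past the fold in both libraries, and the medians were 0.09 and 0.55. Ikzf2 stood at 474 against 442 and 467 against 363 CPM (0.09 and 0.36). Izumo1r had -0.05 and 0.08, Tnfrsf18 0.21 and 0.55, and Il2ra (CD25) 0.11 and -0.63. Single libraries held larger differences: Ikzf4 (Eos) stood at 66.1 against 14.0 CPM at 16 weeks (0.40 and 2.04), with 3 UMIs in the others, and Gpr83 at 33.3 against 79.3 at 8 weeks (-1.28 and -0.69). Foxp3 itself, which the rule requires in both groups, stood at 301 CPM in members and 510 in the others at 8 weeks, and at 364 and 405 at 16 weeks. Every cell had to have a Foxp3 UMI, and 1 UMI is a higher CPM in a shallow cell, so no difference in Foxp3 is read from these levels.

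Of the effector transcription factors 15 were measured and 11 were above 0 in both libraries (medians 0.29 and 1.08). Prdm1, which encodes Blimp1 and is needed for Il10 in effector regulatory cells, had 1.09 and 2.25, Nfil3 2.25 and 1.63, and Rbpj of the Notch pathway 1.92 and 1.15; these 3 were past the fold. After thinning 6 of the factors could be measured, with medians of 0.40 and -0.14 and none past the fold, so the 16-week median did not hold at equal depth. Batf stood at 0.56 and 1.02, Maf at 0.33 and 1.19, Gata3 at 0.29 and 0.44, and Rora at -0.35 and 1.08. Of the 18 tissue repair and ST2-type genes only 7 had enough UMIs (medians 1.02 and 0.61), and Il1r2, Nfil3 and Tnfrsf9 were past the fold. Il1r2 had 54.1 and 59.1 CPM in members, at least 3.19-fold higher at 8 weeks and 2.36 on the log2 scale at 16 weeks. Il1rl1 had 9 and 8 UMIs in all members, too few to measure, and Pparg 0 and 1.

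Receptor signalling genes tended to be higher: of 10 measured the medians were 0.74 and 0.53, and Nr4a1, Egr1 and Tnfrsf9 were past the fold. Nr4a1, induced within hours of receptor engagement, stood at 355 against 108 CPM at 8 weeks and 222 against 97.9 at 16 weeks (1.69 and 1.15). Thinned, it was 3.05 and 0.31, so the 16-week value did not hold. Tnfrsf9, the costimulatory receptor 4-1BB, stood at 246 against 119 and 221 against 55.9 CPM (1.02 and 1.93), and at 1.57 and 2.10 after thinning. Inhibitory receptors (6 genes) had medians of 0.96 and 0.92 with Tigit past the fold and Pdcd1 (PD-1) at 0.88 and 1.14. Costimulatory receptors and the TNF family (13 genes) had 0.37 and 0.43, with Icos at 1.44 and 0.81. Of the S100, annexin and galectin genes (15, medians 0.39 and 0.33) S100a6 and Lgals3 were past the fold. Thinned, 14 of the list had medians of 0.56 and -0.11. S100a6 was abundant, at 1532 against 708 and 1351 against 536 CPM (1.11 and 1.33).

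The Th1-type list held 7 measured genes with medians of 0.77 and 1.92 (1.15 at 16 weeks with Tbx21 at its bound). Without cells of 2 or more beta contigs 4 of them could be measured, with medians of -0.03 and 1.14 and none past the fold. Ifng, the interferon gamma gene, was past the fold (2.03 and 2.49, with 2 UMIs in the others each time), in 30 and 16 members. Thinned, Ifng was 0.42 and 1.77. Ccl5 differed between the libraries: 812 against 804 CPM at 8 weeks (0.01) and 1606 against 55.9 at 16 weeks (4.79, 4.03 to 5.80). The other Foxp3 cells had Ccl5 in 9 and 5 cells, so a few cells set that level. No gene of the glycolysis (11 measured, medians 0.59 and 0.43), NF-kB (14, 0.08 and 0.38), interferon response (8, -0.41 and -0.12), immediate early and stress (13, -0.39 and -0.01), T cell lineage (7, 0.10 and 0.22) or ribosomal protein (83, -0.11 and -0.18) lists was past the fold in both libraries. Of 14 cytokine receptors 1 was lower, Il6st, the shared gp130 chain (-1.13 and -1.04), and the medians were -0.30 and -0.13.

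**Figure D4:**
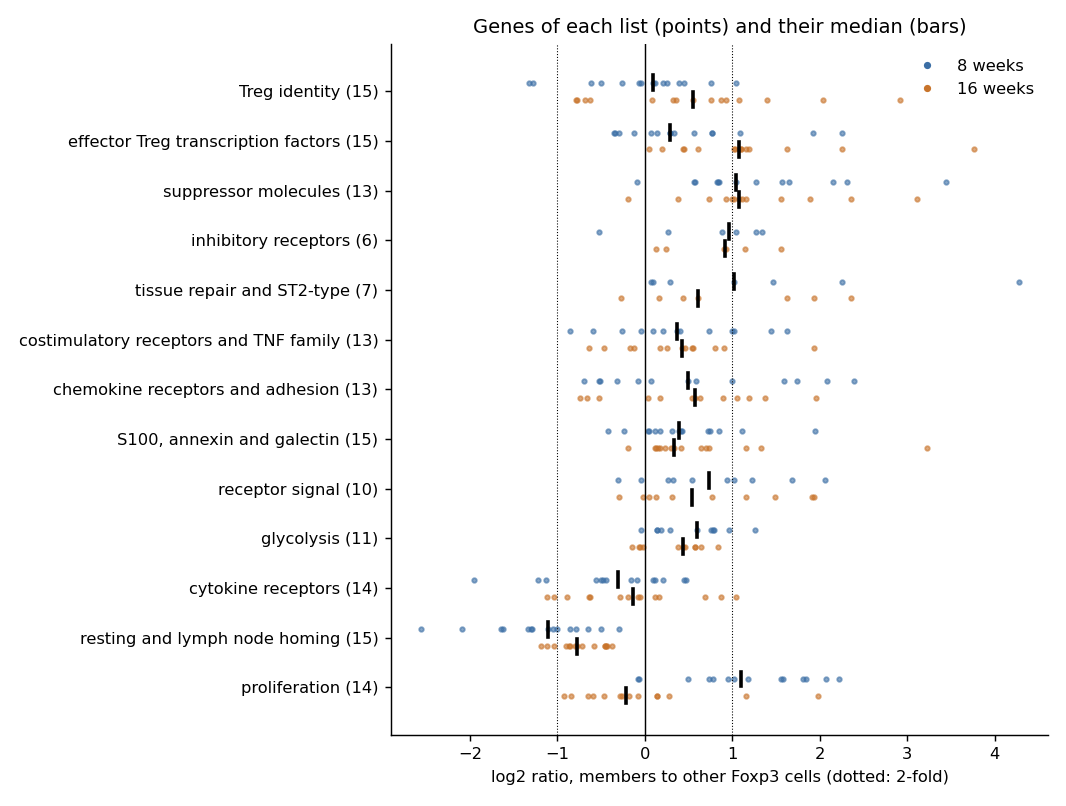
Points are the genes of each list with enough UMIs (their number in brackets), placed by the log2 ratio of members to the other Foxp3 cells, blue for 8 and orange for 16 weeks; black bars are medians and dotted lines mark 2-fold. The resting and lymph node homing genes lie left of 0 in both libraries, and the proliferation genes lie mostly right of 0 at 8 weeks only.

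Levels were also followed by the number of rule genes detected, from 0 to 4 or more. Klf2 stood at 923, 821, 426, 250 and 244 CPM in cells with 0, 1, 2, 3 and 4 or more at 8 weeks, and at 1123, 662, 353, 463 and 258 at 16 weeks. It was thus lower with each added gene at 8 weeks and in 3 of 4 steps at 16 weeks. Tigit stood at 72.1, 298, 333, 514 and 561 CPM at 8 weeks and at 40.1, 182, 255, 302 and 582 at 16 weeks, higher with every step in both libraries. Ctla4 ran from 346 and 252 in cells with 0 and 1 to 681 with 4 or more at 8 weeks, and from 181 through 328, 480 and 533 to 603 at 16 weeks. Cxcr6 set in later: 14.4, 28.0 and 24.7 CPM with 0, 1 and 2 genes and 137 and 161 with 3 and with 4 or more at 8 weeks, against 40.1, 24.3, 49.0, 91.8 and 150 at 16 weeks. Cells just inside the line, with 2 genes, and just outside it, with 1, thus had Klf2 at 426 and 821 CPM at 8 weeks and at 353 and 662 at 16 weeks. Ikzf2 had 375, 485, 580, 443 and 455 CPM at 8 weeks, with no order, and 221, 407, 461, 411 and 503 at 16 weeks, lowest with 0 genes and highest with 4 or more.

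**Figure D5:**
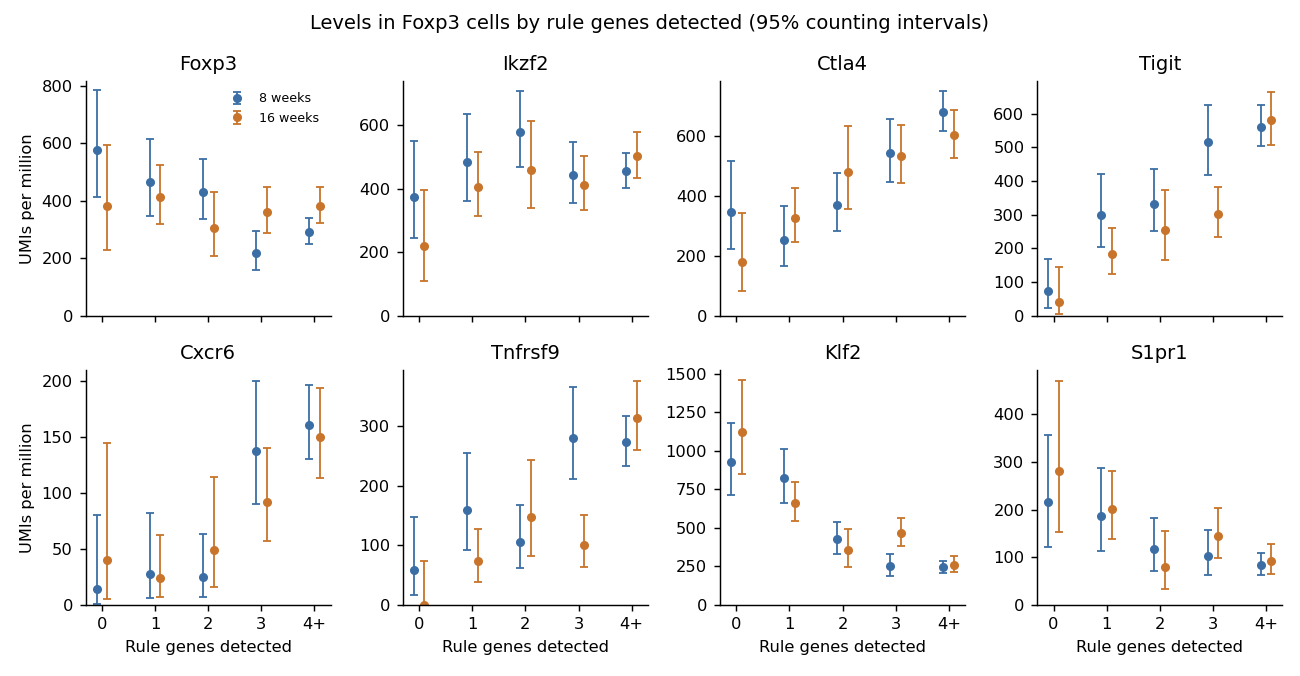
Each panel gives the level of 1 gene in CPM in Foxp3 cells with 0, 1, 2, 3 or 4 and more of the rule genes, blue for 8 and orange for 16 weeks, with exact Poisson intervals of the summed UMIs as bars. Tigit and Ctla4 are highest and Klf2 lowest in the cells with 4 or more genes in both libraries, while Ikzf2 is highest there at 16 weeks only.

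The comparison was repeated without cells of 2 or more beta contigs, as the rule asks. Of 3540 genes with enough UMIs 62 were higher and 24 lower. Of the 84 genes first found higher 51 could still be measured; all 51 kept their sign and 38 were still past the fold, and of the 27 lower genes 10 of 14 were. Log2 ratios at 8 and 16 weeks were then 2.04 and 2.01 for Cxcr6, 2.07 and 3.17 for Arl5a, 2.44 and 1.85 for Samsn1, 1.17 and 1.49 for Tigit, 1.08 and 1.77 for Tnfrsf9, and -1.90 and -1.20 for Klf2. Several genes were past the fold in 1 library only: Prdm1 had 0.44 and 2.84, Il10 0.94 and 1.41, Nr4a1 1.59 and 0.87, S100a6 0.88 and 1.34, and S1pr1 -1.38 and -0.97. With thinning and without these cells at once, a setting chosen after seeing the data, 13 of the 84 could be measured. Of these, 12 were still past the fold: AW112010, Arl5a, Cmtm7, Cst7, Cxcr6, Odc1, Rgs16, S100a6, Samsn1, Sdf4, Tigit and Tnfrsf9. Klf2 stood at -0.37 and -1.09 there.

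Members with 1 and with 2 or more beta contigs differed in some levels. Gzmb stood at 147 CPM in the 80 members with 1 and at 47.3 in the 39 with more at 8 weeks, and at 157 against 20.6 (64 and 32 members) at 16 weeks. Ikzf2 stood at 516 against 404 and 557 against 337 CPM, and Il2ra at 145 against 74.4 and 99.2 against 44.6. Both were lower in the members with more contigs at both ages, which were also the deeper ones. Ccl5 was the reverse, with 627 against 1057 and 1484 against 1810 CPM, as was Ccl4, with 250 against 368 and 165 against 443. Penk stood at 159 against 203 at 8 weeks and at 450 against 172 at 16 weeks, and Cd40lg, the CD40 ligand of helper cells, at 38.3 against 110 and 72.6 against 68.7, with no common direction.

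Markers of other cells in the members were counted as lists. Of 7 B cell genes, members held 73 UMIs at 8 weeks (76.0 CPM, others 34.0) and 88 at 16 weeks (124 CPM, others 41.9). The defining Cd79a, Ms4a1 and H2-Ab1 were at 0, and the UMIs came mainly from Cd74, the invariant chain of MHC class II, at 67.7 against 5.66 and 115 against 37.3 CPM. Acinar RNA was at 135 CPM in members and 164 in the others at 8 weeks and at 246 and 303 at 16 weeks. It was found in 30 members at each age. A setting that left out only cells with more than a few acinar UMIs kept 111 and 85 members. The counts were then 74 higher and 25 lower. Islet endocrine RNA was at 23.9 and 59.1 CPM (5.66 and 4.66 in the others), of which 1 cell gave 73.8% at 16 weeks. Of 11 myeloid and dendritic genes 9 were at 0 in members, which held 4 and 9 UMIs. The CD8 and cytotoxic list, without Cd8a and Cd8b1 UMIs by rule, stood at 825 CPM in members against 481 in the others at 8 weeks and at 751 against 247 at 16 weeks, with UMIs in 88 of 127 and 71 of 99 members. Ccl4, Gzmb, Cst7 and Ifng were higher in members too, and Gzmb is itself a gene of this list. Whether the list goes with them cell by cell, and its part in their values, was not tested. Cells with both Foxp3 and Cd8 UMIs, left out by the rule, met the 2-of-7 condition in 38 of 50 and 34 of 43 (76.0% and 79.1%).

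A second comparison set the members against Foxp3-negative cells with a Cd4 UMI, no Cd8 UMI and at least 2 of the same 7 genes (222 at 8 weeks, 154 at 16 weeks). These were of like depth, with medians of 5794 and 4838 UMIs. A Cd4 UMI was asked of the Foxp3-negative cells only. Of 6763 genes 67 were higher in members in both libraries (0.991%) and 27 lower (0.399%), beside medians over all genes of 0.06 and 0.04. Here the identity genes stood out: of 16 measured the medians were 0.86 and 0.77 and 5 were past the fold. Ikzf2 stood at 474 against 183 CPM at 8 weeks and 467 against 174 at 16 weeks (1.37, 1.16 to 1.59, and 1.42, 1.16 to 1.70). Il2ra stood at 119 against 28.6 and 76.0 against 33.0 CPM (2.05 and 1.19). Ikzf4, which works with Foxp3 in repression, had 1.96 and 2.54, Swap70 1.23 and 1.69, and Gpr83 4.48 (2.81 to 7.88, 2 UMIs in the Foxp3-negative cells) and 1.25. Ctla4 was 1.66 higher at 8 weeks and 0.77 at 16 weeks.

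Several other genes were higher in members than in these Foxp3-negative cells. So was acinar RNA: the list stood at 135 against 58.3 CPM at 8 weeks and 246 against 132 at 16 weeks, its 4 measured genes were above 0 in both libraries, and Ctrb1 and Cela2a were past the fold. Its part in the other values was not tested. Ly6a (Sca-1), an interferon-inducible surface protein, stood at 967 against 285 and 1150 against 421 CPM (1.76 and 1.45), and Ifngr1, a chain of the interferon gamma receptor, at 230 against 52.9 and 242 against 79.0 (2.12 and 1.61). Tnfrsf9 had 1.93 and 1.31, Il1r2 2.85 and 1.95, Il10 2.24 and 1.01, Gzmb 2.72 and 1.98, Fgl2 2.49 and 3.48, and Ebi3, a subunit of interleukin 35, 1.34 and 1.47. Rora, a nuclear receptor found in tissue regulatory cells, had 1.56 and 1.90, Ecm1 2.69 and 2.53, Socs3 1.46 and 1.27 and Pim1 1.53 and 1.26. All 8 interferon response genes were above 0 in both libraries (medians 0.39 and 0.60). The resting list had medians of 0.07 at both ages, so the low Klf2 and S1pr1 levels were set apart from the other Foxp3 cells and not from these cells: Klf2 was 0.36 and 0.03. Cxcr6 (0.51 and 0.28) and Tigit (0.75 and 0.42) were likewise within the fold.

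Among the genes lower in members were those of follicular helper cells, which help B cells. Il21, their cytokine, stood at 18.7 against 79.0 CPM at 8 weeks and 16.9 against 124 at 16 weeks (-2.04 and -2.82). Tox2 had -1.36 and -1.48, Sostdc1 -3.19 (1 UMI in members, -9.11 to -1.12) and -4.32 (2 UMIs, -7.71 to -2.73), and Btla -1.07 and -1.03. Tnfsf8, the CD30 ligand, stood at 42.7 against 191 and 78.8 against 210 CPM (-2.15 and -1.40), and the phosphatase gene Ptpn11 at 57.3 against 170 and 61.9 against 186 (-1.56 and -1.57). Spp1 (osteopontin) had -4.39 and -3.82 and Igfbp7 -1.85 and -2.84. The rule genes admitted both groups, so their levels here are a description. Itgae was 2.44 and 2.51 higher in members and Areg 1.78 and 2.89. Ccr8 stood at 149 against 60.1 CPM at 8 weeks and 98.5 against 61.0 at 16 weeks. Tnfrsf4 stood at 1022 against 491 and 791 against 564 CPM, and Capg at 401 against 181 and 315 against 188. Penk had log2 ratios of 0.07 and 0.25, and Lag3 -0.13 and -0.54. After thinning 12 genes were higher and 14 lower of 1807, and Ikzf2, Ly6a, Ifngr1, Tnfrsf9 and Gzmb above, and Il21, Tnfsf8 and Ptpn11 below, were among those still past the fold. Without cells of 2 or more beta contigs 38 of 45 measurable higher and 16 of 18 lower genes were still past it.

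Between the ages, members of the 16-week library were set against members of the 8-week library. Of 6835 genes with 20 or more UMIs 159 were higher at 16 weeks (2.33%) and 169 lower (2.47%). Few of these calls could be followed: without cells of 2 or more beta contigs 42 of 61 measurable higher and 41 of 69 lower genes were still past the fold, and after thinning 1 of 5 in each direction. Areg was the 1 rule gene past the fold: 218 CPM in 39 members at 16 weeks against 107 CPM in 24 members at 8 weeks (log2 ratio 1.02, 0.66 to 1.40). Penk had 0.92, Itgae 0.51 and Ccr8 -0.59. Foxp3 (0.28), Ctla4 (-0.09) and Ikzf2 (-0.02) lay near 0. Ebi3 was higher at 16 weeks by 1.31, Il4ra by 1.09, Gzmk by 1.23, the glucose transporter gene Slc2a3 by 1.81 and the interferon-induced Isg15 by 1.05. The highest 8 genes were Chpf2, Art2b, St8sia6, Lilr4b, Mterf1a, Pik3ip1, Mylip and Fyco1, with log2 ratios from 2.02 to 2.76. Of these Art2b, an ADP-ribosyltransferase of T cells, was found in 24 members against 7 (45.0 against 7.29 CPM).

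Proliferation genes were lower at 16 weeks. All 14 measured were below 0, with a median of -0.44, and 4 were past the fold. Ube2c, which drives exit from mitosis, stood at 63.3 CPM at 16 weeks and 344 at 8 weeks (-2.43, -2.92 to -1.99), in 11 of 99 and 26 of 127 members. Ccnb2 stood at 39.4 against 118 CPM (-1.56), Cdk1 at 25.3 against 59.3 (-1.20) and Mki67 at 52.1 against 106 (-1.02). Parpbp (-2.60) and Cdkn3 (-2.33) were among the 8 lowest, with Pcgf2, Sapcd2, Fuom, Rnf126 and 0610009B22Rik. Lgals3 had a log2 ratio of -1.12 (64.7 against 142 CPM). The resting list had 14 of 16 genes above 0 with a median of 0.41, none past the fold, and the immediate early and stress list a median of 0.42, beside -0.01 over all genes. Acinar genes had a median of 0.53 with Ctrb1 and Prss2 past the fold, and Ins2 was 1.86 higher with 88.0% of its 16-week UMIs from 1 cell, so RNA of other pancreatic cells also differed between the libraries. Its part in the other values was not tested.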

How the data were processed

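Messenger RNA and T cell receptor libraries of sorted islet T cells were measured at 8 and 16 weeks, 1 of each per age. The matrices that the authors deposited hold counts of UMIs by gene and barcode, and their receptor tables hold counts of reads and UMIs by contig. The matrices carry software version 3.0.1 per the file headers, and build mm10 and Seurat are named per the submitters' processing notes; no source used here gives the aligner or the barcode filter. The libraries held 8659371 and 8183747 UMIs in 2043 and 2107 barcodes, of which 1875 and 1934 were kept (500 or more genes, 10% or less mitochondrial UMIs); 5 barcodes occurred in both, none of them in a Foxp3 group. No doublet caller was run; cells with 2 or more productive beta contigs were left out as an alternative.

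UMIs were summed over the cells of each group and library, and log2 ratios of CPM were taken with 0.5 UMIs added to each sum. Intervals are exact (conditional for ratios, Poisson for levels, Clopper-Pearson for shares). A fold against a group at 0 is a lower bound from 3 UMIs over the group. Genes needed 20 UMIs over both groups in each library, and past the fold means 1 or more in size on the log2 scale, in the same direction. The text names the 15 highest and 10 lowest genes by the smaller of the 2 ratios (8 each between ages), leaving out genes with over 25% of UMIs from 1 cell, and from each list up to 4 abundant members and those past the fold; other genes named were chosen after their values were seen, and a few genes the rule names are not reported here. The members and lists were chosen with earlier results of these data known. Coordinates are from GENCODE M21. Python 3.11.15, numpy 2.4.6, pandas 2.3.3, scipy 1.17.1 and matplotlib 3.10.9 were used, and the scripts were tested on simulated data.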

Additional observations from a re-analysis of the deposited data

Results flagged for a closer look

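The median of the proliferation genes had opposite signs in the libraries when members were set against the other Foxp3 cells. Over 14 measured genes the median log2 ratio was 1.10 at 8 weeks and -0.22 at 16 weeks, and this difference was not tested. Of the 14, 5 were above 0 in both libraries (Ube2c, Cdk1, Hmgb2, Pclaf and Birc5) and 2 below 0 in both (Top2a and Hist1h2ap). The others were above 0 at 8 weeks only, such as Mki67, a marker of cycling cells (2.07 and -0.92), and Ccnb2 (2.21 and -0.29). The sign at 16 weeks depended on the setting: the median there was 0.05 without cells of 2 or more beta contigs, 0.16 with 800 genes and 5% mitochondrial UMIs as limits, 0.29 with equal weight per cell, 0.80 thinned (2 genes measured) and 2.67 against cells with 0 rule genes (3.89 at 8 weeks, 12 of 13 genes past the fold).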

How the results depend on the processing

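Of 1310 values of single genes under the other settings, 1236 stayed within the counting interval of the value first given, 65 fell outside it with the same sign, and 9 reversed. The genes followed were ones already past the fold. A minimum of 50 or of 10 UMIs changes which genes are counted and not their ratios. The values under those settings therefore stayed the same by construction, and the 1236 include them. Of 62 counts and shares, 33 moved by over 1.5 times (counts) or out of the interval (shares). Genes higher and lower than in the other Foxp3 cells numbered 233 and 120 against cells with 0 rule genes and 28 and 1 thinned. They were 128 and 54 with equal weight per cell and 33 and 43 with 2 UMIs added. With a minimum of 50 UMIs they were 30 and 5, and with a minimum of 10 they were 157 and 65. Without cells that had UMIs of 2 or more of the 14 proliferation genes they were 37 and 11. That setting left 46 and 37 members, and whether the cells it dropped were dividing was not tested. In 2 settings chosen after seeing the data the gene numbers were 47 and 3 (cells of 2500 to 6000 UMIs) and 24 and 1 (thinned, without 2 or more beta contigs). Between ages they were 40 and 65 thinned, 279 and 266 with equal weight, and 32 and 38 thinned without such cells. Against Foxp3-negative cells thinning, chosen after seeing the data, gave 12 and 14. The members' share of Foxp3 cells was 60.7% at 8 weeks without cells of 2 or more beta contigs and 58.8% when also thinned, 77.2% and 77.4% with 2 or more Foxp3 UMIs, and 77.4% at 16 weeks with a Cd4 UMI needed. Clones by the beta chain alone held 25.2% and 19.8% of members. The cause was not tested. With 2 or more Foxp3 UMIs Il10 (-0.60) and Cd74 (-0.0033) reversed at 16 weeks and Fam101b (0.46) at 8 weeks; with a Cd4 UMI needed, Sesn1 (0.11) at 16 weeks; thinned, Fam101b (0.25); in the 2500 to 6000 window, P4ha1 (0.37) and Fam101b (0.021); thinned without 2 or more beta contigs, Fam101b (0.23) and Il6st (0.037), all at 8 weeks. No paired analysis was possible because each group has 1 sample.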
